A study of Mus musculus with 48 samples.

Results

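The nuclear genes of respiratory complexes III, IV and V were followed as RNA in the mouse cortex, in total homogenate and in synaptosomes, at 3 ages. Members were chosen by name and not by any measured value. They are the protein-coding genes of the count table, by the mouse GENCODE annotation, whose symbol begins with Uqcr (complex III), with Cox4 to Cox8 (complex IV) or with Atp5 (complex V), pseudogenes left out. The rule gave 43 of the 48526 genes in the table, with 8 in complex III, 18 in complex IV and 17 in complex V. A few of the named genes are not classical subunits: Cox7a2l encodes a factor that joins complexes III and IV into supercomplexes, and Atp5s encodes a protein related to coupling factor B. Cytochrome c1, which is a subunit of complex III, is not reached by the rule and was counted in a separate list.

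The study compared the cortex of male C57BL/6JRj mice aged 3 weeks (3w), 5 months (5m) and 18 months (18m), with 4 mice at each age and 12 in all. The sample labels give 6 months for the middle group, while the protocol in the labels gives 5 months, and 5m is used here. Each mouse gave 4 libraries, 48 in all: RNA of the total homogenate of the cortex (input_TH), RNA of synaptosomes (input_SYN), and the ribosome-containing pellet of each after a sucrose cushion (SC_TH and SC_SYN), which holds RNA associated with ribosomes. No group differed in genotype or in treatment. Synaptosomes here were a band of a sucrose density gradient, so they hold whatever other membrane fragments gather in that band, and in any of these bulk samples fewer cells of a type and less RNA per cell cannot be told apart. Libraries held from 1780267 to 18590040 counts in genes, with the fewest in input_SYN at 3w (1780267 to 4519629) and input_TH between 9699909 and 13225435.

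Complex III takes electrons from ubiquinol to cytochrome c, complex IV takes them from cytochrome c to oxygen, and both pump protons across the inner mitochondrial membrane. Complex V, the ATP synthase, lets the protons back and makes ATP. Cytochrome b of complex III, the catalytic core of complex IV and part of the membrane sector of complex V are encoded in mitochondrial DNA, and the other subunits are encoded in the nucleus, translated on cytosolic ribosomes and imported. Axon terminals and dendrites hold mitochondria far from the cell body, and synaptic transmission is among the largest users of ATP in the cortex.

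The c subunit forms the proton-carrying ring of complex V and is the clearest case of 1 protein made from several nuclear genes. Its 3 genes, Atp5g1, Atp5g2 and Atp5g3, encode different import sequences in front of a shared mature part. The ends of the coding sequences are shown because these genes are compared below by their read counts, which can be told apart only where the letters differ. The last 228 coding bases (75 codons and the stop) follow, from the GENCODE transcripts of GRCm38, read 5′ to 3′ on the coding strand with introns spliced out. Atp5g2 has a further annotated coding end, which is not shown. Capitals mark the 58 positions at which the 3 genes are not all the same. They lie on the minus strand at chr11:96073104-96073635 (Atp5g1), chr15:102663014-102665166 (Atp5g2) and chr2:73908593-73909296 (Atp5g3), in coding exons of each gene.
Atp5g1: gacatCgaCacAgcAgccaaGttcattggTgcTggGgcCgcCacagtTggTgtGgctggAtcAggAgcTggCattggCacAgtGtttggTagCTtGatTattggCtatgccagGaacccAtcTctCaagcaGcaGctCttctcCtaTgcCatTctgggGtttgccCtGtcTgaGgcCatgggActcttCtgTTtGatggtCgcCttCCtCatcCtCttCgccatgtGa
Atp5g2: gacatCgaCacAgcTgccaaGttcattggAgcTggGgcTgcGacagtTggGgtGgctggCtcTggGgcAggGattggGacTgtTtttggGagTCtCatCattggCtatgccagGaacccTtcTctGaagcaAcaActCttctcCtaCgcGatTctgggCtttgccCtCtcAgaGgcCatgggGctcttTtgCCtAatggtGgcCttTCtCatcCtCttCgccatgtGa
Atp5g3: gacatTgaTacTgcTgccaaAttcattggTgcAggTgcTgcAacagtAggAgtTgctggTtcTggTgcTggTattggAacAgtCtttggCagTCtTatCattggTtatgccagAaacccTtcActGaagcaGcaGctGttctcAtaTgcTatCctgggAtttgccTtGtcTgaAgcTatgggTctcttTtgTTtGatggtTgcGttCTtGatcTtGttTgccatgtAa
Over this stretch Atp5g1 and Atp5g2 shared 85.1% of bases, Atp5g1 and Atp5g3 79.8%, and Atp5g2 and Atp5g3 78.5%. No codon of any pair encoded a different residue. The longest run shared without a difference was 21 bases between Atp5g1 and Atp5g2, 11 bases between Atp5g1 and Atp5g3, and 8 bases between Atp5g2 and Atp5g3.

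Upstream sequence was available for 33 of the 43 members, by RefSeq starts of GRCm38.p6. It was read over a window from 250 bases before to 50 bases after the start of the gene. Nuclear respiratory genes are known for binding sites of ETS-family factors, NRF1 and YY1, so the letters CCGGAAG (ETS core), CGCATGCG (NRF1 core) and AAGATGGC (YY1 core) were searched on both strands. The ETS core was found in 10 of 33 members (30.3%), against 9.93% of all genes, and the NRF1 core in 7 (21.2%), against 2.07%. The YY1 core was found in 3 members (9.1%), all of complex V, against 3.19% of all genes. These are matches of letters and not measured binding. A stretch of 100 bases that ends at or just upstream of the RefSeq start, with at most 20 bases inside the GENCODE gene, is shown for Uqcr11 (chr10:80406822-80406921), Cox6a1 (chr5:115348962-115349061) and Cox6b1 (chr7:30626132-30626231), all on the minus strand. They are shown because the SC to input value of these genes in homogenate was higher at 5m than at 3w by the interaction test. Capitals mark the ETS core or its reverse complement, CTTCCGG.
Uqcr11: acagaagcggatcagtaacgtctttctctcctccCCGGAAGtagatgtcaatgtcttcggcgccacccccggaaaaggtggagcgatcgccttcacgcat
Cox6a1: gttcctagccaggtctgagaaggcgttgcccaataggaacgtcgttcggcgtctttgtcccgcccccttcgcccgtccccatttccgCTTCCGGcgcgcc
Cox6b1: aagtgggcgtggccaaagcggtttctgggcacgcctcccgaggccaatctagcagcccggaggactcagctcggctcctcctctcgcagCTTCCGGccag
Uqcr11 held the core as searched, and Cox6a1 and Cox6b1 held its reverse complement.

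The summed level of the 43 genes was highest in SC_SYN and lowest in input_TH. Levels are given as CPM (counts scaled to a common library total) after TMM scaling, which assumes that most genes do not differ between libraries. Between SYN and TH most genes were called different by edgeR at an adjusted p under 0.05. The share was 71% to 72.7% of all genes in input RNA and 62.1% to 67.8% in ribosome-associated RNA. In input_TH the sum was 2580 ± 98.3 CPM at 3w, 2407 ± 18.9 at 5m and 2721 ± 95.4 at 18m (SD, n = 4). In SC_TH it was 3478 ± 172, 3727 ± 131 and 4207 ± 103 CPM, and the 18m libraries (4104 to 4331) did not overlap with the 5m libraries (3613 to 3855). In input_SYN it was 4101 ± 307, 3826 ± 179 and 3789 ± 318 CPM, and in SC_SYN 5269 ± 243, 5098 ± 333 and 4564 ± 313 CPM, where the libraries of all ages ranged from 4155 to 5596. As plain shares of all counts the fractions lay much closer together: the genes took 0.298% to 0.339% of counts in input_TH, 0.295% to 0.363% in input_SYN, 0.401% to 0.519% in SC_TH and 0.366% to 0.487% in SC_SYN. The difference comes from the TMM factors, which were 1.16 to 1.28 in homogenate and 0.78 to 0.886 in synaptosomes, so every SYN to TH difference below is relative to the typical gene and not to the total RNA.

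**Figure D1:**
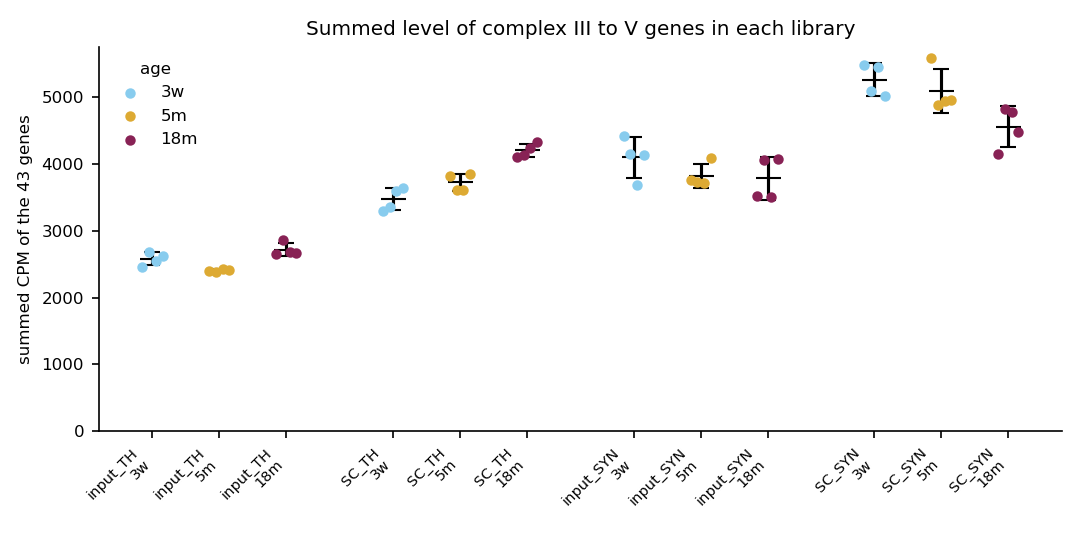
Summed CPM (TMM-scaled) of the 43 nuclear genes of complexes III to V in each of the 48 libraries, by fraction and age. Points are mice, and bars give the mean and SD of 4 mice. The sums run from 2388 in input_TH at 5m to 5596 in SC_SYN at 5m, and in SC_TH the 4 libraries at 18m lie above those at 5m.

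Per kilobase of exon, a few genes carried much of the total. In input_TH, averaged over the 3 ages, Cox6a1 led with an RPKM (CPM per kilobase of exon) of 196.9, followed by Cox4i1 (132.1 RPKM), Cox8a (130.9 RPKM), Cox6b1 (120.1 RPKM) and Atp5a1 (115.0 RPKM). These 5 genes held 46.0% of the summed RPKM in input_TH, and the top 5 held 42.3% in SC_TH, 55.4% in input_SYN and 49.1% in SC_SYN. Cox4i1, Cox6a1 and Cox8a, which encode subunits IV, VIa and VIII of cytochrome c oxidase, headed both synaptosome fractions. Atp5b, the catalytic beta subunit of complex V, headed SC_TH at 196.5 RPKM. At the other end stood the isoforms typical of muscle, lung or testis: Cox8c had 2 counts in all 48 libraries, Cox7b2 57, Cox8b 189, Cox4i2 385, Cox6b2 449 and Cox7a1 483. Because of these low genes, 37 to 41 of the 43 members could be tested in each fit. Cox7b2 and Cox8c were tested in none, and the other low isoforms passed in the fits with more counts. The counts below are therefore over tested members and not over all members. Among tested members, Atp5s alone was called in no comparison.

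Synaptosomes were compared with homogenate to learn where these RNAs lie. Among ribosome-associated RNAs (SC), 12 of 15 complex IV genes were higher in SYN than in TH at 3w, 11 at 5m and 7 at 18m, and none was lower. Their median log2 fold change was 1.07, 0.61 and 0.49 at the 3 ages. Complex III had 6, 6 and 1 of 8 genes higher (medians 0.60, 0.46 and 0.14) and complex V 11, 8 and 1 of 17 (medians 0.56, 0.23 and -0.02). The difference between complexes was not tested. Over all complexes 29 of 40 tested members were called higher and 0 lower at 3w, 25 higher and 0 lower at 5m, and 9 higher and 3 lower at 18m, by edgeR's quasi-likelihood test with Benjamini-Hochberg adjustment over all genes at 0.05. Of all genes tested, 31.1% were called higher and 32.4% lower at 3w, 32.1% and 35.8% at 5m, and 29.9% and 32.2% at 18m. The member median was 0.71, 0.53 and 0.16, and the median of all genes -0.04, -0.09 and -0.07.

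When libraries were scaled by their totals alone, without TMM, the split became 8 higher and 7 lower at 3w, 3 and 12 at 5m and 2 and 22 at 18m. Every gene shifts in that setting: the median of all genes moved to -0.59, -0.68 and -0.60. The distance of the members from that median hardly moved, at 0.757, 0.616 and 0.231 with TMM and 0.756, 0.615 and 0.230 with library size. Under both scalings the member median lay above that of all genes in SYN at every age. A change of scaling moves all genes nearly alike, so this distance could hardly change and does not test the scaling.

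In the input RNA, 24 of 40 members were called higher and 3 lower in SYN at 3w, 22 and 1 at 5m, and 19 and 2 at 18m. Of all genes, 31.7% were called higher and 39.3% lower at 3w, 32.6% and 40.1% at 5m, and 32.9% and 39.4% at 18m. The member medians were 0.45, 0.57 and 0.37 against -0.18, -0.18 and -0.12 for all genes. Library size in place of TMM gave 9 higher and 13 lower, 11 and 16, and 10 and 19, with the members above the median gene by 0.627, 0.752 and 0.486. Complex IV had medians of 0.86, 0.87 and 0.87 against 0.34, 0.19 and 0.27 for complex III and 0.19, 0.21 and 0.09 for complex V.

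Cox4i1, Cox6c, Cox7a2, Cox7a2l, Cox7c, Cox8a and Atp5j2 were called higher in SYN in all 6 comparisons, in input and SC RNA at every age. These 7 genes are 6 of complex IV by name and 1 of complex V (Atp5j2, subunit f of the membrane part). The share of all genes called higher in all 6 was not counted. In single comparisons it was 29.9% to 32.9%. Cox4i1, the largest nuclear subunit of cytochrome c oxidase, ran at 292, 304, 275 and 295 CPM in the 4 SC_TH libraries at 3w and at 626, 851, 900 and 593 CPM in SC_SYN, a log2 fold change of 1.40 (SE 0.124, adjusted p = 4.43e-10). All 4 SC_SYN libraries lay above all 4 SC_TH libraries, as they also did at 5m (1.16, SE 0.123, adjusted p = 9.66e-09) and 18m (0.84, SE 0.122, adjusted p = 2.05e-06). In input RNA at 3w Cox4i1 ran at 191, 222, 202 and 206 CPM in TH and 662, 672, 670 and 625 CPM in SYN (1.69, SE 0.0771, adjusted p = 5.13e-17), with 1.71 at 5m (SE 0.0772, adjusted p = 3.14e-17). Emc8 lies on the opposite strand over part of Cox4i1 and its 21011 counts were assigned without regard to strand.

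Cox7c, a small subunit of complex IV, had the highest called SYN to TH value in input RNA at every age: 2.11 at 3w (SE 0.103, adjusted p = 1.8e-16), 2.09 at 5m (SE 0.104, adjusted p = 2.2e-16) and 1.81 at 18m (SE 0.101, adjusted p = 3.02e-15). Its input levels at 3w were 41.1, 40.4, 40.5 and 41.4 CPM in TH and 161, 192, 169 and 183 CPM in SYN, so the groups were far apart. In SC RNA at 18m it had the highest called value too, at 67.1, 69.0, 49.6 and 54.7 CPM in TH and 122, 95.2, 87.9 and 144 CPM in SYN (0.93, SE 0.151, adjusted p = 1.01e-05). Of the 100-base windows along Cox7c exons, 16.2% also occur in the annotated pseudogene Gm10012 or another transcript. Atp5j2 followed in input at 3w with 20.8, 21.8, 24.0 and 25 CPM in TH and 70.1, 82.4, 78.3 and 67.4 CPM in SYN (1.72, SE 0.116, adjusted p = 2.06e-13), and had 1.54 at 18m (SE 0.112, adjusted p = 9.34e-13). Its SC value at 18m was 0.81 (SE 0.184, adjusted p = 0.00052), from 43.8 to 58.8 CPM in TH and 63.3 to 112 CPM in SYN.

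Cox6a1, the widely expressed isoform of subunit VIa, had the highest called SC value at both younger ages. At 3w SC_TH libraries held 76.5, 61.1, 99.1 and 87.5 CPM and SC_SYN libraries 336, 108, 238 and 285 CPM (1.63, SE 0.280, adjusted p = 1.58e-05). At 5m SC_TH held 114, 78.2, 94.8 and 135 CPM and SC_SYN 460, 284, 327 and 265 CPM (1.68, SE 0.274, adjusted p = 7.56e-06). At 18m SC_SYN libraries held 130, 273, 264 and 139 CPM and overlapped with those of SC_TH (112, 120, 130 and 144 CPM), and the value was 0.70. Cox8a, the ubiquitous subunit VIII, had 1.30 at 3w (SE 0.238, adjusted p = 3.71e-05), from 75.5, 63.4, 96.5 and 84.0 CPM in SC_TH and 274, 123, 138 and 220 CPM in SC_SYN, and 0.91 at 5m (SE 0.232, adjusted p = 0.0013).

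In SC_SYN at 18m several members differed widely between the 4 libraries in a shared order. Totals in this group ran from 5341263 to 18590040 counts, and the libraries of mice 196 and 197 were deeper than those of mice 195 and 198. The part of depth in this order was not tested. Mice 196 and 197 were high and mice 195 and 198 low for Cox6a1 (273 and 264 against 130 and 139 CPM), Cox8a (195 and 227 against 105 and 117 CPM), Uqcr11 (68.7 and 73.6 against 31.3 and 38.2 CPM) and Atp5d, the delta subunit (111 and 121 against 52.1 and 46.9 CPM). The same order was seen in Cox7b (75.6 and 83.1 against 51.8 and 56.5 CPM) and Cox7a2 (59.3 and 61.7 against 41.8 and 46.7 CPM). Cox7c was the other way round, with 95.2 and 87.9 CPM in mice 196 and 197 and 122 and 144 CPM in mice 195 and 198. So were Uqcrc2 (110 and 105 against 143 and 153 CPM), Atp5j2 (67.6 and 63.3 against 92.9 and 112 CPM) and Atp5h (131 and 120 against 140 and 178 CPM). Wide spreads were not confined to this group. In input_SYN at 18m Cox6a1 held 158, 320, 103 and 300 CPM, with mice 195 and 197 low. With the trend of fold change with GC content and length over all genes removed, 15 members were called higher and 2 lower in SC RNA at 18m, in place of 9 and 3, and the member median was 0.22 in place of 0.16.

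In complex V, calls in input RNA fell on subunits of the membrane part, the head and the stalk. Of its genes called higher in input SYN at all 3 ages, Atp5g2 and Atp5g3 (c subunit), Atp5j2 (f), Atp5k (e) and Atp5l (g) encode membrane subunits and Atp5b encodes the catalytic beta subunit. Atp5e (epsilon, of the head) and Atp5h (d, of the stalk) were called higher at 3w (0.45 and 0.39) and 5m (0.68 and 0.48) and not at 18m. Atp5g1, the third c subunit gene, was called in no comparison of SYN with TH, and Atp5mpl, a small membrane subunit, in none in input RNA. Atp5g2 went from 11.8, 11.7, 12.8 and 12.1 CPM in input_TH at 5m to 28.3, 29.5, 40.8 and 36.7 CPM in input_SYN (1.48, SE 0.172, adjusted p = 1.28e-08), with 1.54 at 18m (SE 0.161, adjusted p = 1.66e-09). Among the genes of the head and stalk, Atp5f1 (subunit b of the stalk) was called lower in input SYN at all 3 ages, at -0.33 (SE 0.1, adjusted p = 0.00507), -0.32 (SE 0.0999, adjusted p = 0.00528) and -0.29 (SE 0.0945, adjusted p = 0.00742), but its sign turned to 0.46, 0.52 and 0.30 once the trend of fold change with GC content and length over all genes was removed. At 3w it stood at 76, 85, 80.8 and 86.1 CPM in input_TH and 70.4, 65.9, 53.1 and 68.7 CPM in input_SYN. Atp5c1 (gamma) had -0.52 at 3w (SE 0.163, adjusted p = 0.00593), and Atp5d had -0.53 at 3w (SE 0.201, adjusted p = 0.0199) and -0.57 at 18m (SE 0.190, adjusted p = 0.00867), where input_SYN libraries ranged from 27.4 to 78.6 CPM.

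The members called lower in SC_SYN were found at 18m and were 3: Uqcrfs1 (the Rieske iron-sulfur protein), Atp5a1 (the alpha subunit) and Atp5f1. Uqcrfs1 held 78.5, 84.9, 79.7 and 93.6 CPM in SC_TH and 58.5, 70.3, 71.0 and 53.1 CPM in SC_SYN (-0.38, SE 0.138, adjusted p = 0.0207), with no overlap. Atp5a1 held 591, 602, 686 and 696 CPM in SC_TH and 474, 578, 579 and 474 CPM in SC_SYN (-0.26, SE 0.108, adjusted p = 0.0379), and Atp5f1 109, 111, 112 and 113 CPM against 79.1, 95.1, 96.3 and 89.9 CPM (-0.27, SE 0.080, adjusted p = 0.00529), which became 0.061 with the GC and length trend removed. The number of members whose 4 SC_SYN libraries all lay above the 4 SC_TH libraries was 19 at 3w, 19 at 5m and 4 at 18m, and 0, 0 and 4 lay wholly below. Of all genes tested 25.2%, 28.2% and 24.7% lay wholly above and 29.5%, 32.9% and 30.8% wholly below. In input RNA the member counts were 22 above and 3 below, 22 and 1, and 17 and 1, against 27.6%, 29.6% and 27.7% of all genes above and 36.7%, 37.7% and 35.4% below.

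**Figure D2:**
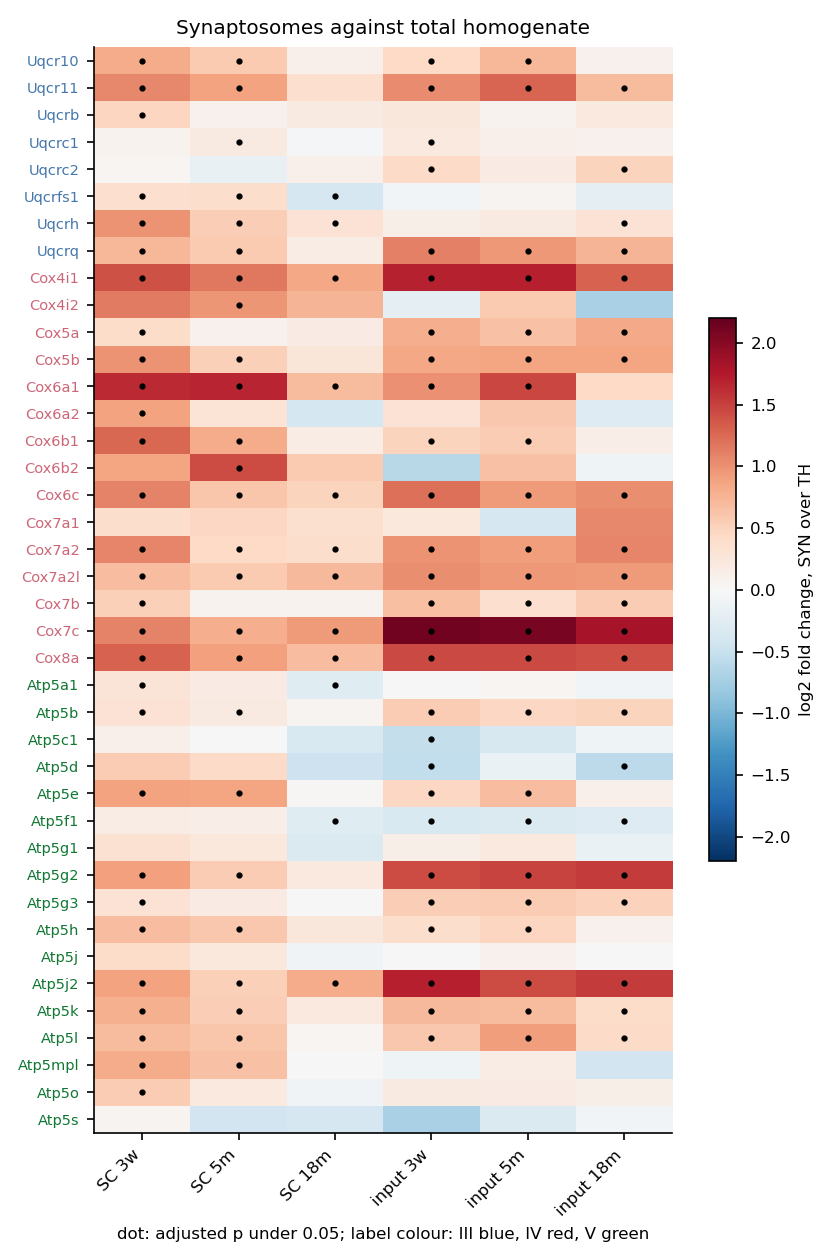
Heat map of the log2 fold change SYN over TH (TMM scale, colours limited to 2.2 either way) for the 40 tested members, by complex, in SC and input RNA at 3w, 5m and 18m. A dot marks an adjusted p under 0.05 by edgeR. Complex IV genes such as Cox4i1, Cox7c and Cox8a are higher in all 6 columns, and the SC column at 18m holds 9 dots for higher and 3 for lower values.

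Cell markers moved between the fractions as well. Astrocyte markers (8 genes) were all called higher in SYN in all 6 comparisons, and their summed level was 5774 to 7074 CPM in SC_TH and 15932 to 19155 CPM in SC_SYN. In input RNA the astrocyte sum was 3731 to 5128 CPM in TH and 13323 to 16803 CPM in SYN. Microglia markers were called higher in 7 or 8 of 8 genes (268.1 to 402.8 CPM in SC_TH, 608.4 to 1340 in SC_SYN; 189.6 to 226.8 and 360.6 to 779.1 CPM in input). Oligodendrocyte markers in SC RNA were higher for 8, 7 and 5 of 8 genes at the 3 ages, with sums of 1932 to 4722 CPM in TH and 2882 to 10517 CPM in SYN, and in input for 5, 5 and 4. Synaptic and dendritic markers (10 genes) were higher for 6, 7 and 7 and lower for 3, 3 and 3 in SC RNA, and 16542 to 25233 CPM in SC_SYN stood against 9263 to 10542 in SC_TH. Parvalbumin interneuron markers (7 genes) were split, with 4, 4 and 3 higher and 3 lower at each age in SC RNA.

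Endothelial and erythrocyte markers were called lower in SYN for all 8 and all 5 genes in all 6 comparisons. The endothelial sum was 75.4 to 140.5 CPM in SC_TH and 11.4 to 26.7 CPM in SC_SYN, and the erythrocyte sum 244.8 to 628.2 CPM and 21.5 to 70.7 CPM. Mural cell markers were lower for 5, 4 and 4 of 7 tested genes and higher for 1 in SC RNA, with 1 or 2 of the 8 genes at 0 in some SYN groups. In the other lists named here no gene was at 0 in any group. The nuclear RNA list (7 genes) was lower throughout, with 17012 to 19934 CPM in input_TH and 1749 to 4397 CPM in input_SYN. The part of these cell types and of nuclear RNA in the SYN to TH differences of the complex III to V genes was not tested.

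Ribosome-associated RNA was compared with input RNA of the same fraction to see which of these RNAs the cushion pellet holds more or less of. In homogenate, 23 of 41 tested members were called higher in SC and 5 lower at 3w, 27 and 1 at 5m, and 32 and 2 at 18m, with medians of 0.33, 0.54 and 0.54. Of all genes, 26.1% were higher and 26.6% lower at 3w, 29.9% and 32.2% at 5m, and 31.3% and 32.7% at 18m. In synaptosomes, 15 of 37 tested members were higher and 1 lower at 3w, 12 and 1 at 5m, and 12 and 1 at 18m, with medians of 0.45, 0.40 and 0.38. Here 9.04% of all genes were higher and 9.5% lower at 3w, 9.66% and 10.3% at 5m, and 5.88% and 6.7% at 18m. With single mice left out the 3w calls in either direction were 10 to 12 in place of 16, and 10 without mouse 187.

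By complex, with no test between them, the counts in SYN were as follows: complex III had 6, 4 and 4 of 8 genes higher and complex V 7, 7 and 6 of 17, while complex IV had 2, 1 and 2 of 12. In TH, complex V had 11, 12 and 14 of 17 genes higher and complex III 5, 7 and 8 of 8, while complex IV had 7, 8 and 10 of 16. The 9 genes called higher in SC in all 6 comparisons were Uqcrc1 and Uqcrc2 (the core proteins of complex III), Cox5a (a matrix-side subunit of complex IV), Atp5a1, Atp5b, Atp5f1, Atp5g3, Atp5h (stalk subunit d) and Atp5o (the oligomycin sensitivity protein that joins the stalk to the head). The share of all genes called higher in SC in all 6 was not counted. Atp5g3 had 60.8, 58.7, 56.5 and 60.4 CPM in input_TH and 135, 122, 150 and 148 CPM in SC_TH at 3w (1.25, SE 0.0701, adjusted p = 8.02e-14). In synaptosomes at 3w it had 101, 83.7, 75.2 and 76.4 CPM in input and 182, 143, 177 and 166 CPM in SC (0.97, SE 0.101, adjusted p = 1.2e-06), again with no overlap.

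Among members with a mean of at least 50 counts, Cox5a had the highest value in TH at 5m (1.41, SE 0.081, adjusted p = 8.51e-14). At 18m it held 29.3, 24.7, 27.2 and 27.7 CPM in input_TH and 82.6, 75.9, 74.5 and 65.8 CPM in SC_TH (1.47, SE 0.0798, adjusted p = 1.55e-14), next to Atp5g2 with 12.1, 9.65, 11.1 and 12.8 against 36.8, 35.1, 32.6 and 30.3 CPM (1.57, SE 0.118, adjusted p = 9.48e-12). At 3w Atp5j2 was first in TH (1.43, SE 0.104, adjusted p = 9.48e-12). In synaptosomes the genes next to Atp5g3 were Atp5o (0.87, SE 0.119, adjusted p = 2.69e-05) and Uqcrb (0.78, SE 0.195, adjusted p = 0.0064) at 3w, Uqcrfs1 (0.87, SE 0.170, adjusted p = 0.000742) and Cox5a (0.81, SE 0.123, adjusted p = 4.51e-05) at 5m, and Uqcrb (0.92, SE 0.182, adjusted p = 0.00135) and Cox7b (0.78, SE 0.193, adjusted p = 0.00781) at 18m. Uqcrb is a small accessory subunit of complex III that helps bind ubiquinone, and Cox7b is a small subunit of complex IV.

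Cox7a2l, the supercomplex factor, was the member called lower in the SC RNA of synaptosomes, and it was so at every age. It held 104, 100, 85.3 and 92.4 CPM in input_SYN and 58.4, 83.2, 79.7 and 57.8 CPM in SC_SYN at 3w (-0.48, SE 0.137, adjusted p = 0.0155), with -0.62 at 5m (SE 0.136, adjusted p = 0.00194) and -0.51 at 18m (SE 0.134, adjusted p = 0.0126). At all 3 ages its SC_SYN libraries lay below its input_SYN libraries. In homogenate Cox7a2l had -0.21 at 5m (SE 0.0651, adjusted p = 0.00734) and -0.23 at 18m (SE 0.0641, adjusted p = 0.00297). Cox6a1 was lower in SC_TH at 3w, with 132, 161, 140 and 131 CPM in input and 76.5, 61.1, 99.1 and 87.5 CPM in SC (-0.78, SE 0.135, adjusted p = 2.29e-05), and at 18m (-0.37, SE 0.127, adjusted p = 0.0131). Uqcrh, Cox6b1, Atp5d (-0.46, SE 0.157, adjusted p = 0.015) and Atp5mpl (-0.56, SE 0.152, adjusted p = 0.00296) were also lower at 3w.

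The 4 SC libraries lay wholly above the 4 input libraries for 19, 25 and 28 members in TH at 3w, 5m and 18m, and wholly below for 4, 1 and 2, against 23.2%, 24.6% and 27.8% of all genes above and 24.8%, 27.2% and 30.1% below. In SYN the counts were 13, 16 and 10 above and 1, 2 and 1 below, against 10.3%, 14.8% and 7.87% of all genes above and 9.27%, 11.7% and 8.07% below. The nuclear RNA list had 10735 to 14135 CPM in SC_TH at 3w, 7698 to 11358 at 5m and 5470 to 6513 at 18m, against 17012 to 19934 in input_TH. Its part in the SC to input values of homogenate was not tested.

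**Figure D3:**
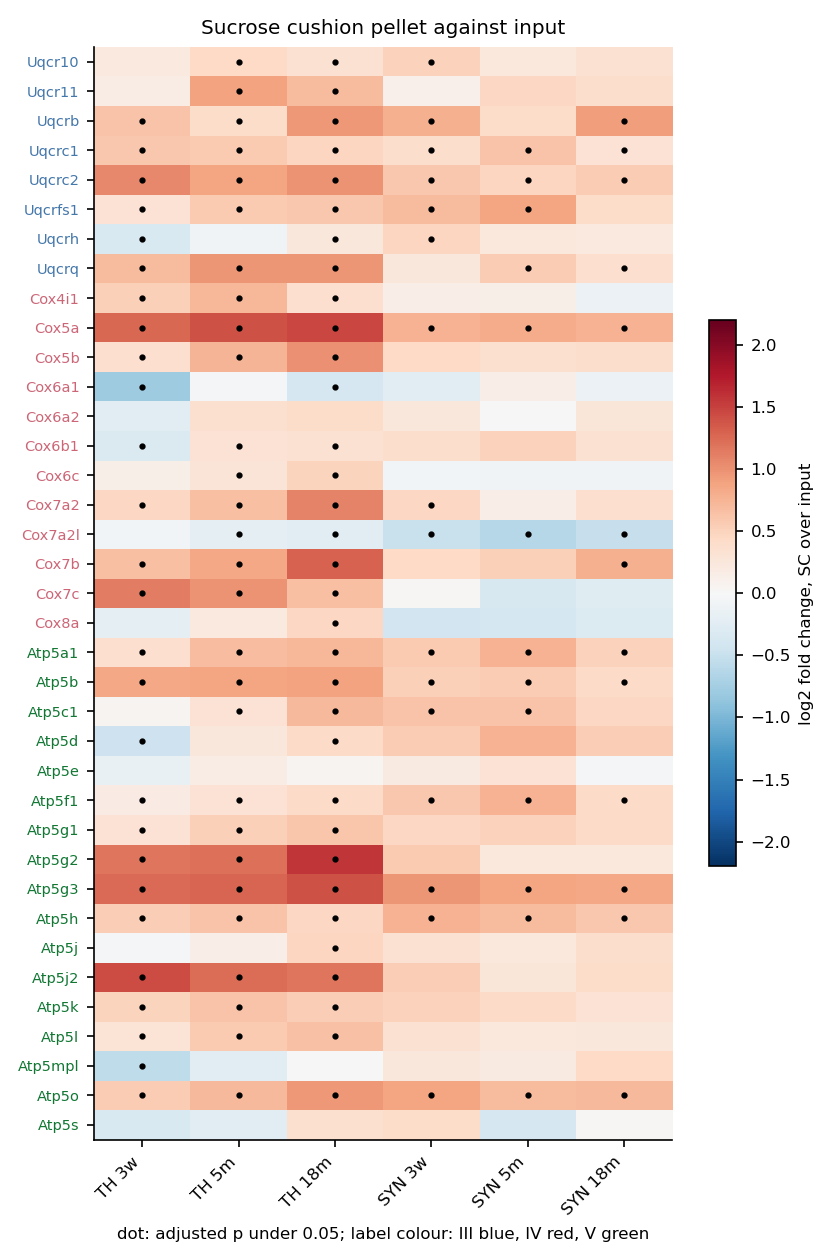
Heat map of the log2 fold change SC over input for the 37 members tested in both compartments. Rows are genes, with names coloured by complex, and columns are TH and SYN at each age. Atp5g3 and Cox5a are high in both TH and SYN, and Cox7a2l is below 0 in SYN at every age.

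Age was compared within each fraction, between 3w and 5m and between 5m and 18m. The changes were small next to the differences between fractions, and they were called mainly in input_TH. At 5m against 3w 8 of 40 tested members were called lower in input_TH and 0 higher, while 7.05% of all genes were called lower. At 18m against 5m 11 were called higher and 0 lower, while 8.18% of all genes were called higher. Both comparisons use the same 5m libraries, so they are not independent of each other. The member medians were -0.09 and 0.13, and 31 of 40 values were negative at 5m and 28 positive at 18m. With the mouse as a block in limma's voom model across all 4 fractions the counts were 0 and 2, and DESeq2 gave 7 and 10. The voom fit changed the model and the libraries used as well as adding the block, so the part of the block was not tested. Leaving out single mice gave 5 to 8 genes lower at 5m (5 without mouse 190, 192 or 194) and 7 to 14 higher at 18m (7 without mouse 192 or 196).

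Complex IV held 6 of the 8 genes lower at 5m: Cox4i1 (-0.22), Cox6a1 (-0.38, SE 0.0791, adjusted p = 0.00394), Cox6b1 (-0.32, SE 0.0615, adjusted p = 0.0022), Cox6c (-0.22), Cox7c (-0.28) and Cox8a (-0.31). The others were Uqcr11 (-0.47, SE 0.0728, adjusted p = 0.000419), a small complex III subunit, and Atp5d (-0.21). Uqcr11 held 28.9, 30.1, 28.8 and 28.7 CPM at 3w and 22.1, 21.2, 19.7 and 21.4 CPM at 5m. Cox6b1, which lies on the intermembrane side of the complex IV dimer, held 90.3, 105, 85.4 and 92.4 CPM at 3w and 75.7, 73.9, 70.8 and 78.4 CPM at 5m. In neither gene did the ages overlap, and 12 members in all lay wholly lower at 5m, against 9.37% of all genes.

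At 18m the input_TH calls were Uqcr10, Uqcr11, Uqcrc1, Uqcrfs1 and Uqcrq of complex III, Cox4i1, Cox6a1 and Cox6b1 of complex IV, and Atp5a1, Atp5h and Atp5l of complex V. Cox6a1 went from 113, 108, 107 and 106 CPM at 5m to 150, 195, 158 and 159 CPM at 18m (0.61, SE 0.0789, adjusted p = 0.000759). Cox4i1 went from 184, 177, 177 and 170 CPM to 212, 261, 218 and 238 CPM (0.40, SE 0.0647, adjusted p = 0.00243), and Uqcr10 from 28.2, 24.6, 24.8 and 30.9 CPM to 33.9, 37.1, 33.3 and 36.4 CPM (0.37, SE 0.0836, adjusted p = 0.00892). The others lay between 0.19 (Atp5a1) and 0.32 (Uqcr11). The libraries at 18m lay wholly above those at 5m for 14 members, against 9.84% of all genes, and mouse 196 was the highest at 18m in Cox6a1 and Cox4i1. In the same libraries the nuclear RNA list summed to 18943 to 19414 CPM at 5m and 17012 to 18318 CPM at 18m, with 3 of 7 genes called lower and 1 higher, and the oligodendrocyte markers to 2093 to 2370 and 2375 to 2775 CPM, with 4 of 8 called higher. Their part in the input_TH differences was not tested.

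In SC_TH at 5m against 3w Atp5a1 was called higher and Cox7c lower, against 17.9% of all genes called in either direction. Atp5a1 held 407, 413, 477 and 492 CPM at 3w and 586, 499, 514 and 602 CPM at 5m (0.30, SE 0.0892, adjusted p = 0.0264). Cox7c held 91.6, 95.3, 77.1 and 91.9 CPM at 3w and 51.4, 80, 76.9 and 60.7 CPM at 5m (-0.41, SE 0.132, adjusted p = 0.0408), where the ages overlapped. Both calls were lost without mouse 187, 188, 191 or 194, and 7 members were called without mouse 192. At 18m against 5m edgeR called 0 of 39 members in SC_TH, with 19 at an unadjusted p under 0.05. DESeq2 called 1, the voom fit of all fractions with the mouse as a block called 1, and edgeR called 6 without mouse 191. Here 2.17% of all genes were called and 17.5% had an unadjusted p under 0.05, 35 of 39 member values were positive and the median was 0.24. In the same comparison the nuclear RNA list was called lower for 6 genes, and its part was not tested.

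In synaptosomes the calls at 5m against 3w were lower values in complex IV. Cox6c, a small complex IV subunit, went from 87.7, 79.3, 82.1 and 75.1 CPM to 62.7, 49.2, 57.9 and 61.8 CPM in input_SYN (-0.52, SE 0.109, adjusted p = 0.0127), the 1 member called, against 1.94% of all genes called lower. In SC_SYN Cox6c went from 76.3, 89.1, 78.4 and 70.4 CPM to 47.4, 58.6, 61.3 and 57.3 CPM (-0.53, SE 0.145, adjusted p = 0.0396). Cox7c went from 165, 197, 219 and 153 CPM to 116, 120, 109 and 114 CPM (-0.72, SE 0.159, adjusted p = 0.0144) and Cox7a2 from 71.7, 67.5, 59.2 and 65.1 CPM to 35.0, 49.0, 50.8 and 49.0 CPM (-0.56, SE 0.144, adjusted p = 0.0291). All 3 lay wholly lower at 5m, and they were the 3 members called in SC_SYN, against 4.02% of all genes called lower. The voom fit of all fractions with the mouse as a block called 6 lower. By edgeR the count was 1 or 2 with any single mouse left out (1 without mouse 187, 188, 189, 190, 191, 192 or 194). Vps13b, on the opposite strand over part of Cox6c, held 40876 counts.

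At 18m against 5m no member was called in synaptosomes by edgeR. In input_SYN 2 members and 9.36% of all genes had an unadjusted p under 0.05 and DESeq2 called 0 members, with 0.139% of all genes called. In SC_SYN 5 members and 17.4% of all genes had an unadjusted p under 0.05, with 0.014% of all genes called. DESeq2 called 1 member lower there, and the voom fit of all fractions with the mouse as a block called 3 lower. Oligodendrocyte markers moved in the same libraries: all 8 were called lower at 5m than at 3w in all 4 fractions, with medians of -1.37 in input_TH, -1.0 in SC_TH, -1.44 in input_SYN and -1.41 in SC_SYN. In SC_SYN their sum was 8618 to 10517 CPM at 3w and 3470 to 3786 CPM at 5m. Their part in the age differences of complex IV was not tested.

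**Figure D4:**
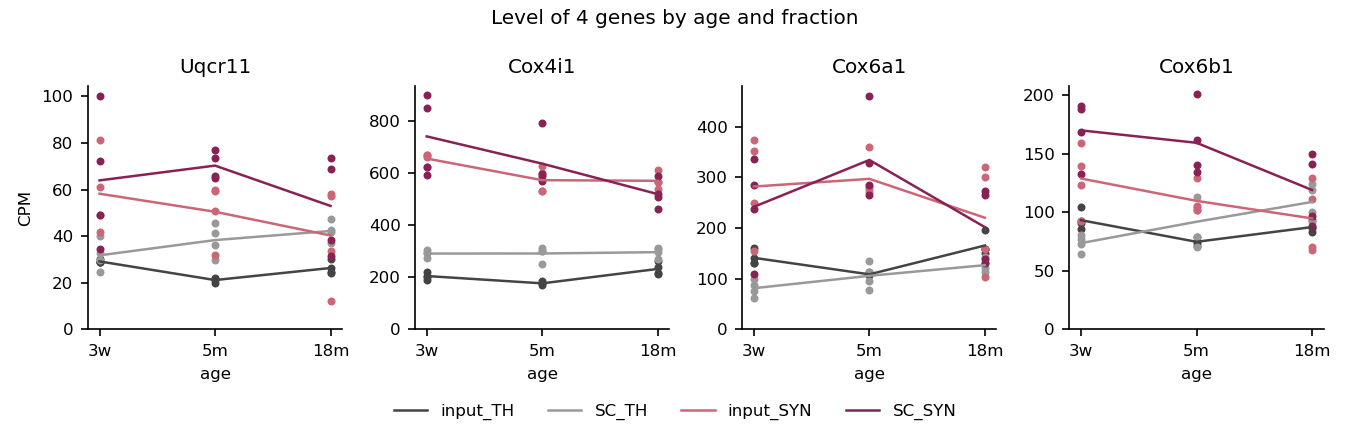
CPM of Uqcr11, Cox4i1, Cox6a1 and Cox6b1 by age in the 4 fractions. Points are mice and lines join the means of 4 mice. In input_TH all 4 genes lie lowest at 5m, while in SYN fractions the mice spread widely, as for Cox6a1 in SC_SYN at 18m (130 to 273 CPM).

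Whether age changes differed between fractions was tested by the difference of the differences. In input RNA, between 5m and 18m, Cox4i1 moved less upward in SYN than in TH (-0.40, SE 0.106, adjusted p = 0.0411): input_SYN held 601, 629, 533 and 532 CPM at 5m and 568, 567, 612 and 539 CPM at 18m, while input_TH rose. Atp5h had -0.39 (SE 0.106, adjusted p = 0.0457), from 108, 101, 96.0 and 105 to 105, 89.8, 92.3 and 91.5 CPM in SYN and from 79.2, 72.7, 71.9 and 72.5 to 87.6, 99.2, 85.9 and 85 CPM in TH, and with the mouse as a block its adjusted p was 0.0608. These were 2 of 40 members, against 2.42% of all genes, and the block gave 4 and DESeq2 4. With RLE scaling the count was 1, which was neither of these 2 genes (edgeR adjusted p = 0.0519 for Cox4i1 and 0.0518 for Atp5h). The count was 0 with library size. It was also 0 with the GC and length trend removed, which left Cox4i1 at -0.15 and Atp5h at -0.33. Without mouse 191, 192, 193, 194 or 196 the count went to 0. Between 3w and 5m edgeR called 0 members in input RNA, with 1 at an unadjusted p under 0.05 and 0 by DESeq2, against 0.0224% of all genes called and 8.05% at an unadjusted p under 0.05.

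In SC RNA the SYN to TH difference had 0 members called between 3w and 5m (5 at an unadjusted p under 0.05, 0 by DESeq2), where 0.0301% of all genes were called and 7.96% had an unadjusted p under 0.05, and 0 between 5m and 18m (12 at an unadjusted p under 0.05, 3 lower by DESeq2), where 0.0% of all genes were called and 17.2% had an unadjusted p under 0.05. The values leaned one way: 35 of 40 were negative in the first comparison (median -0.17) and 33 of 40 in the second (median -0.31). Per mouse, the median log2 CPM of complex IV in SC_SYN minus SC_TH was 0.89 ± 0.20 at 3w, 0.60 ± 0.15 at 5m and 0.37 ± 0.26 at 18m (SD, n = 4). Complex III gave 0.51 ± 0.18, 0.45 ± 0.05 and 0.02 ± 0.16, and complex V 0.38 ± 0.13, 0.25 ± 0.10 and -0.14 ± 0.16. The SC comparisons of single ages had 29 members called higher and 0 lower at 3w and 9 higher and 3 lower at 18m, and edgeR called no member for a difference between neighbouring ages.

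In homogenate, SC minus input changed between 3w and 5m for Uqcr11 (0.71, SE 0.171, adjusted p = 0.0291), Cox6a1 (0.75, SE 0.187, adjusted p = 0.0337) and Cox6b1 (0.63, SE 0.162, adjusted p = 0.0364), the 3 genes whose upstream sequence is shown above, against 2.33% of all genes. In each, input_TH was lower at 5m and no SC_TH difference was called: Uqcr11 in SC_TH held 32.6, 24.5, 40.1 and 29.7 CPM at 3w and 45.7, 29.9, 36.3 and 41.2 CPM at 5m, and Cox6b1 73.0, 64.0, 77.2 and 80.1 CPM and 105, 70.5, 79.1 and 113 CPM. In SC_TH the ages overlapped for both. Of the SC_TH libraries at 5m, mouse 192 was the lowest for all 3 genes. Without mouse 192 the test called 6 members, and without mouse 187, 188, 191 or 194 it called 0. With the GC and length trend removed all 3 calls were lost (adjusted p = 0.0916 for Uqcr11, 0.0841 for Cox6a1 and 0.0693 for Cox6b1), and scaling by library size lost Cox6b1 (adjusted p = 0.0513). Between 5m and 18m edgeR called 0 in homogenate (12 at an unadjusted p under 0.05, 1 higher and 1 lower by DESeq2), where 1.78% of all genes were called and 17% had an unadjusted p under 0.05, with 7 called without mouse 191 and 2 without mouse 195. In synaptosomes SC minus input had 0 called in both age comparisons (0 and 2 at an unadjusted p under 0.05, 0 and 0 by DESeq2), with 0.0% of all genes called in each and 3.31% and 2.75% at an unadjusted p under 0.05.

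The tissue-restricted isoforms were minor in every fraction. By RPKM Cox4i2 made up 0.128% to 0.782% of Cox4i1 plus Cox4i2 (group means), Cox6a2 0.897% to 2.9% of the VIa pair and Cox6b2 0.217% to 0.827% of the VIb pair. Cox7a1 made up 2.58% to 6.75% of Cox7a1 plus Cox7a2, with Cox7a2l left out. Cox8b reached at most 1.41% of Cox8a plus Cox8b. Some of them were called between fractions at these low counts: Cox6a2 in SC SYN over TH at 3w (0.89), Cox4i2 (0.97) and Cox6b2 (1.43) at 5m, and Cox8b (2.36) and Cox7a1 (0.90) in SC over input of TH at 3w and 18m.

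The c subunit genes changed their proportions between fractions. Atp5g3 made up most of the summed RPKM everywhere, from 53.3% ± 3.8 in input_SYN at 5m to 68.3% ± 2.2 in SC_TH at 3w (SD, n = 4). RPKM divides by all annotated exon bases, 4912 for Atp5g1, 1675 for Atp5g2 and 2181 for Atp5g3, so each share depends on these lengths. In input_TH at 3w the undivided levels of Atp5g1 (59.1, 64.6, 58.2 and 64.1 CPM) and Atp5g3 (60.8, 58.7, 56.5 and 60.4 CPM) were close. Atp5g2 made up 14.2% ± 0.49, 16.5% ± 0.66 and 14.7% ± 1.7 in input_TH at the 3 ages and 25.1% ± 0.99, 28.6% ± 3.1 and 27.3% ± 6.2 in input_SYN. Atp5g1 went the other way, with 27.1% ± 0.88, 25.3% ± 0.77 and 26.4% ± 1.8 in input_TH and 19.2% ± 2.3, 18.1% ± 1.2 and 15.5% ± 2.1 in input_SYN. In SC RNA Atp5g1 lay between 13.5% and 16.9% and Atp5g2 between 15.3% and 21.5%. No test was run on these shares. Of the 100-base windows of Atp5g2, 34.7% also occur elsewhere, mainly in the pseudogene Gm10175, so its share is uncertain.

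**Figure D5:**
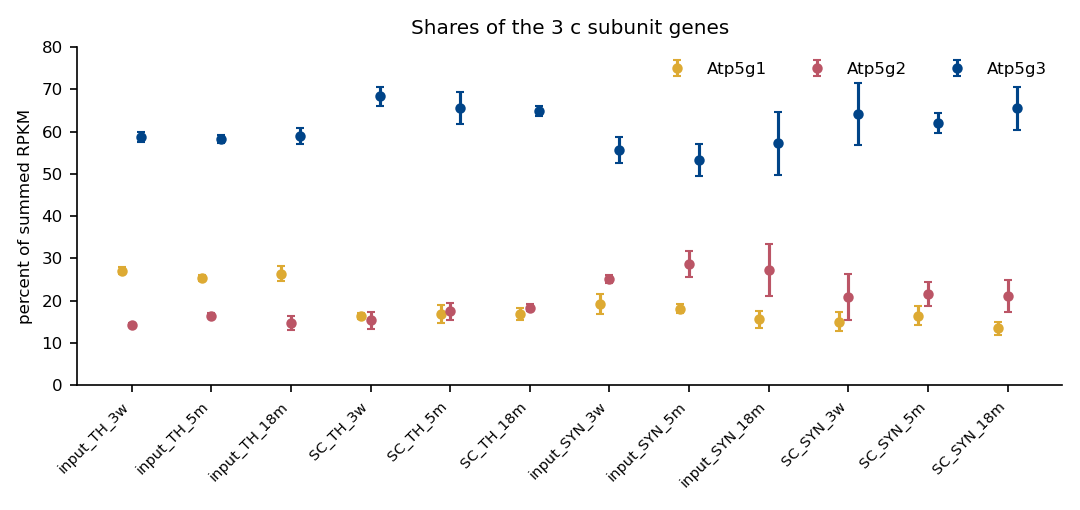
Share of the summed RPKM of the 3 c subunit genes held by Atp5g1, Atp5g2 and Atp5g3, in percent, as mean and SD of 4 mice in each fraction at each age. Atp5g3 holds over 50% in every group, and Atp5g2 lies higher in input_SYN (25.1% to 28.6%) than in input_TH (14.2% to 16.5%).

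Other genes of the pathway were followed as lists. The subunits encoded in mitochondrial DNA (6 genes of complexes III to V) were all called higher in SC_SYN than in SC_TH at every age, with medians of 1.86, 1.55 and 1.26, and in input for 4, 5 and 5 of 6. Against input they went the other way from most nuclear members: in TH 6, 6 and 5 of 6 were lower in SC, with medians of -2.90, -2.25 and -1.13, and in SYN 6, 5 and 4. They are translated on mitochondrial ribosomes. In input_TH all 6 were lower at 18m than at 5m (median -0.55), where 11 nuclear members were higher. Complex I nuclear subunits (36 genes) were higher in SC_SYN for 24, 19 and 11 genes and lower for 0, 1 and 2, with medians of 0.57, 0.37 and 0.23, and 13 of them were higher in input_TH at 18m against 5m. In SC over input of TH 23, 32 and 32 complex I genes were higher.

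Complex II (4 genes) was higher in SC_SYN for 3, 2 and 2 genes, and the list of cytochrome c1 and cytochrome c (2 genes) for 1, 1 and 0. Assembly factors of complexes III to V (31 tested) were spread, with 13 higher and 6 lower in SC_SYN at 3w, 10 and 9 at 5m and 5 and 11 at 18m. The regulators of nuclear respiratory genes (10 genes), which include transcription factors and coactivators, had 0 higher and 7, 6 and 6 lower in SC_SYN.

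The members' SYN to TH values varied with exonic length, taken over all annotated transcripts of a gene. Over the 35 members with a mean of at least 50 counts, Spearman's rho between the SC value and log2 exonic length was -0.584, -0.456 and -0.454 at the 3 ages, and with GC content 0.412, 0.513 and 0.139. In input the values with length were -0.253, -0.321 and -0.185. The members share the same libraries, so these are descriptions and not tests. The SC and input values themselves ran together across the members, at 0.661, 0.704 and 0.830. Of the 43 members 26 shared no 100-base window with another transcript, and 5 shared over 10%: Atp5g2, Atp5o (27.9%), Cox7c, Uqcrc2 (15.5%) and Atp5h (11.5%). Of the genes that overlap a member on the opposite strand, Cbarp, which overlaps Atp5d, had the most counts (150912), though it shares no 100-base window of Atp5d exons.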

How the data were processed

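RNA-seq libraries came from 4 fractions of the cortex of 12 mice, 48 in all. After rRNA depletion they were made with a directional kit with UMI adaptors; whether duplicates were removed is not given in the sources used here. The authors mapped reads to GRCm38 with TopHat2 2.1 and deposited raw counts per gene (Ensembl release 85) made by featureCounts without regard to strand. Sequencing took 2 runs, and which library went into which is not given in the sources used here. The unit of the deposited table is counts, and no per-sample column was left unused.

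Identifiers were named by GENCODE M21 (48144 of 48526; the others held 0.06% of counts). Totals ranged from 1780267 to 18590040, and low genes have the widest errors. Each comparison was fitted over all genes with edgeR 4.0.16 (R 4.3.3) by the quasi-likelihood test after TMM scaling and filterByExpr, with Benjamini-Hochberg adjustment over all genes tested at 0.05. Age comparisons used the libraries of 1 fraction, comparisons of fractions the libraries of both, and interactions were terms of the same fits. DESeq2 1.42.0, limma 3.58.1 (voom with the mouse as a block), other scalings, no filter, a GC and length trend, and each mouse left out were alternatives. The edgeR fits were tested on simulated counts in which few genes changed and libraries were independent. That test held no interaction and no comparison in which most genes differ. Mice are separate animals, and the same number marks the same mouse, so the numbers pair the libraries across fractions. The median correlation over the 12 mice of their deviations from the group means ranged from -0.0098 (SC_TH with SC_SYN) to 0.111 (input_TH with SC_TH).

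All members were counted. Full values were given for the 3 largest changes in each direction among called members whose higher group averaged 50 counts or more. They were also given for paralogs and for every member called in an interaction. Genes described for the spread between libraries at 18m were chosen after their values were seen. These were Atp5d, Atp5h, Atp5j2, Cox6a1, Cox7a2, Cox7b, Cox7c, Cox8a, Uqcr11 and Uqcrc2 in SC_SYN, and Cox6a1 in input_SYN. The members and lists were chosen with earlier results of these data known.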

Additional observations from a re-analysis of the deposited data

Results flagged for a closer look

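In 83 groups of 4 libraries (summed levels, complex medians and the genes named by the interaction or age tests), the highest or lowest library was set against Dixon's 95% critical value for 4 samples, which chance passes in about 1 of 20 groups, and 10 passed. The summed CPM of the complex III to V genes was 2863 for mouse 196 in input_TH at 18m (others 2660 to 2684), 4093 for mouse 194 in input_SYN at 5m (3713 to 3764) and 5596 for mouse 191 in SC_SYN at 5m (4895 to 4956). The median log2 CPM was 5.87 for complex III in mouse 194 in input_SYN at 5m (others 5.53 to 5.58), 6.36 for complex IV in mouse 187 in input_SYN at 3w (5.81 to 5.89) and 5.59 for complex V in mouse 188 in SC_SYN at 3w (6.36 to 6.48). Atp5h stood at 105.3 CPM in mouse 195 in input_SYN at 18m (89.8 to 92.3) and at 79.2 CPM in mouse 191 in input_TH at 5m (71.9 to 72.7), Cox7a2 at 35.0 CPM in mouse 191 in SC_SYN at 5m (49.0 to 50.8), and Uqcr11 at 30.1 CPM in mouse 188 in input_TH at 3w (28.7 to 28.9).

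The age change differed between fractions by the interaction test for Cox4i1 (-0.40) and Atp5h (-0.39) in input RNA, SYN minus TH, between 5m and 18m, and for Uqcr11 (0.71), Cox6a1 (0.75) and Cox6b1 (0.63) in homogenate, SC minus input, between 3w and 5m.

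Related rows outside the rule also held counts over the 48 libraries: 2010 for Atp5l-ps1, 913 for Cox6c2, 469 for Atp5l2-ps and 5 for Uqcrh-ps2.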

How the results depend on the processing

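With library size in place of TMM several SYN to TH medians turned negative. They were -0.062 at 5m and -0.37 at 18m for SC RNA, and -0.13, -0.077 and -0.21 at 3w, 5m and 18m for input RNA. The members stayed above the median of all genes. A change of scaling could hardly alter that, so it does not test the scaling. The called members in SC RNA with library size were 15, 15 and 24 in either direction. Library size also gave 5 in input_TH at 5m against 3w and 0 for the input interaction (SYN minus TH, 18m against 5m), where RLE scaling gave 1, DESeq2 4, the GC and length trend 0 and the mouse as replicate block 4. DESeq2 called 1 in SC_TH, 1 in SC_SYN and 3 for the SC interaction between 5m and 18m, and for SC minus input of TH 5 between 3w and 5m and 2 between 5m and 18m, where RLE gave 1 and a fit without mtDNA genes 1. Without the filter on low counts the counts were 5 in SC_TH between 3w and 5m, 4 between 5m and 18m, and 6 for SC minus input of TH between 3w and 5m. With the GC and length trend removed the counts were 7 in input_TH at 18m, 1 and 1 in SC_TH, 2 in input_SYN at 5m and 0 for SC minus input of TH at 5m; Atp5f1 turned to 0.061 (SC, 18m) and 0.46, 0.52 and 0.30 (input). Voom with the mouse as replicate block (consensus correlation 0.0591) gave 0 and 2 in input_TH, 1 in SC_TH at 18m, 6 and 3 in SC_SYN; the block changed no other count by over 1.5 times. With 1 mouse left out the counts ranged from 5 to 8 and 7 to 14 in input_TH, 0 to 7 and 0 to 6 in SC_TH, 1 to 2 in SC_SYN at 5m, 10 to 12 for SC over input in SYN at 3w (10 without mouse 187), 0 to 2 for the input interaction at 18m, and 0 to 6 and 0 to 7 for SC minus input of TH. Of the named members' values over all single mice left out, 279 stayed on their side, 73 lost the call and 0 turned. The cause of these changes was not tested. Depth limits input_SYN most, where 37 members could be tested and the least deep library held 1780267 counts.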
